A study of Mus musculus with 16 samples.

Results

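Mitochondria keep their own ribosome, the mitoribosome, which translates the few proteins encoded in mitochondrial DNA, all of them core subunits of the respiratory chain and of ATP synthase. Its RNAs come from mitochondrial DNA, but all of its proteins are made in the cytosol from nuclear genes and imported. Members named Mrpl belong to the large subunit, which joins amino acids, and members named Mrps mostly to the small subunit, which reads the messenger. The 77 genes described here were those of the deposited count table whose symbols are Mrpl or Mrps followed by a number, with or without a or b, out of 49584 listed genes. They comprised 49 Mrpl and 28 Mrps genes. The rule left out 5 pseudogene rows and Mrps18c. Sorted by number, 44 members (with Mrpl47 added as a known homologue) fall in the series used for bacterial ribosomal proteins and 33 fall outside it. The number is only a guide to descent: Mrps24, known as the counterpart of a bacterial protein, is numbered outside the series and is counted among the 33.

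RNA came from germinal centre B cells of the spleen, the cells that divide, mutate their antibody genes and are selected after immunization. The 16 libraries were made from C57BL/6J mice aged 3 months, 8 days after injection of sheep red blood cells, and formed 4 groups of 4. Mutant centrocytes and mutant centroblasts came from Ezh2(Y641F)fl/wt;Cγ1-cre mice, which carry 1 conditional allele of Ezh2, a histone H3K27 methyltransferase, with a change found in lymphomas. Control centrocytes and control centroblasts came from Cγ1-cre mice without that allele. All mice carried 1 copy of Cγ1-cre, which is driven by the immunoglobulin γ1 locus and therefore acts in B cells activated by antigen. All cells were sorted as B220+, FAS+ and CD38-, and all mice are labelled as 1 litter. Centrocytes, which occupy the light zone and compete there for antigen and T cell help, were CXCR4- and CD86+. Centroblasts, which proliferate in the dark zone, were CXCR4+ and CD86-.

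The libraries held 35230563 to 44466911 counted reads, and the members took 0.303 to 0.449% of them. Light zone markers, which include the sort gene Cd86, summed to 1312 to 1384 CPM (counts scaled to a common library size after TMM normalization) in mutant centrocytes, 1259 to 1495 in control centrocytes, 494 to 589 in mutant centroblasts and 508 to 569 in control centroblasts. Dark zone markers, which include the sort gene Cxcr4, summed to 1568 to 1982 CPM in mutant centrocytes and 2064 to 2666 in control centrocytes, without overlap, and to 2247 to 3122 in mutant centroblasts and 2360 to 3596 in control centroblasts. In mutant against control centrocytes 1 of 6 light zone and 1 of 6 dark zone markers were called lower, and of 10 germinal centre B cell markers 2 were called higher and 1 lower. Counts per gene do not separate the mutant from the normal Ezh2 allele, so the genotype labels could not be checked by that gene. Transcripts of Y-linked genes were present in libraries 1 and 2 of every group and near 0 in libraries 3 and 4, which are called male and female below. Control centrocyte library 2 had 26725 genes with a count, against 19838 to 23005 in the other libraries. The design calls the 4 libraries of a group biological replicates and does not say how many mice went into each. The comparisons below share libraries: control centrocytes, for example, enter one genotype comparison and one cell type comparison.

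Promoter sequence is shown for 4 members whose levels carry the results below. Mrpl9, a large-subunit protein, and Mrps30, which despite its name is bound to the large subunit, were lower in centrocytes than in centroblasts of both genotypes. Mrps18a, another Mrps name found in the large subunit, was also lower in centrocytes of both genotypes, and Mrps24, a small-subunit protein, was higher in mutant than in control centrocytes. The windows are those of RefSeq (GRCm38.p6), 250 bases before to 50 after the annotated start on the gene's strand: chr3:94443086-94443385 (plus strand) for Mrpl9, chr13:118387203-118387502 (minus strand) for Mrps30, chr17:46110754-46111053 (plus strand) for Mrps18a and chr11:5707652-5707951 (minus strand) for Mrps24. Capitals mark exact matches, on either strand, to CCGGAAG (an ETS core, as bound by GABP), AAGATGGC (YY1) and the NRF1 palindrome, whose letters are those in capitals in the Mrpl9 window, motifs of factors known for nuclear genes of mitochondrial proteins.
Mrpl9: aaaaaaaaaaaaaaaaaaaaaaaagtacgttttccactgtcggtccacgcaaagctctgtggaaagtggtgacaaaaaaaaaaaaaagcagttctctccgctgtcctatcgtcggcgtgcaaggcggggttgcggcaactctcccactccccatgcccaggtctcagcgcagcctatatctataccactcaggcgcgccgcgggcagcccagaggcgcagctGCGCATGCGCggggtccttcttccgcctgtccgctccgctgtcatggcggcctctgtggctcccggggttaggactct
Mrps30: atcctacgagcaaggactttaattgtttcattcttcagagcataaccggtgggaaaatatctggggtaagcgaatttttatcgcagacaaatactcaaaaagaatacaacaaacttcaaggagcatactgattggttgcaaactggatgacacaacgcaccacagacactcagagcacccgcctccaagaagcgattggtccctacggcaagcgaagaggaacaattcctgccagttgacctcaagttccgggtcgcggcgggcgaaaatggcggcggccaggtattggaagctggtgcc
Mrps18a: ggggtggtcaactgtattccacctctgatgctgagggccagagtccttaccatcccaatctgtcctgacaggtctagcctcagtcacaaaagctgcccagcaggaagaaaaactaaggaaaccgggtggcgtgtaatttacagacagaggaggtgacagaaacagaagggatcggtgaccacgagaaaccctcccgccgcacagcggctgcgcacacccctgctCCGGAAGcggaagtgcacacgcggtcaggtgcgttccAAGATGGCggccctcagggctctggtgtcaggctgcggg
Mrps24: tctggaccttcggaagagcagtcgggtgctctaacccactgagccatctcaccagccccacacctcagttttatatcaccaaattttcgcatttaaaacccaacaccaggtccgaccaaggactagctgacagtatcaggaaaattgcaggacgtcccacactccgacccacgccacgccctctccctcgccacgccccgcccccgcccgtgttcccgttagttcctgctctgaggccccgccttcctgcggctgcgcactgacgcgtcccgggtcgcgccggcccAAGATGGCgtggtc
The Mrpl9 window held an NRF1 match from position -28, Mrps18a an ETS match from -26 and a YY1 match from 12, and Mrps24 a YY1 match from 37, with position 1 at the start. The Mrps30 window held none of the 3.

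Of the 77 members, 68 had a RefSeq promoter, 74 windows in all. At least 1 ETS match was present in 36.8% of these members and in 20.9% of the 9643 tested genes with a window. For YY1 the shares were 17.6% of members and 5.53% of tested genes, and for NRF1 4.41% and 2.46%. The general motifs CCAAT (39.7% of members, 43.2% of tested genes) and TATAAA (7.35% and 8.42%) were at similar shares, and GGGCGG, an Sp1 core, was in 48.5% of members and 67.4% of tested genes. GC content had a median of 58.5% in member windows and 60.3% in those of tested genes. A match to these letters is not a bound site. Another shared feature was position: 24 members (31.2%) start within 500 bases of a coding gene on the other strand, as do 14.4% of 11579 tested coding genes. Mrpl46 and Mrps11 start 412 bases apart from each other, and Mrpl36 starts 29 bases from Ndufs6, a subunit of respiratory complex I.

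All 77 members passed the filter and were tested. Their levels per kilobase of transcript, averaged over the 16 libraries, spanned 3.59 CPM per kb for Mrpl23 to 118 for Mrpl33. Mrpl33 was at 115 ± 27.8 CPM per kb in mutant centrocytes, 90.5 ± 11.8 in control centrocytes, 138 ± 22.5 in mutant centroblasts and 129 ± 13.8 in control centroblasts (SD, n = 4 each). Mrps21 (99.6 averaged over the 16 libraries) and Mrpl18 (91.2) came next, and Mrps36 (4.83) and Mrps25 (4.98) were the lowest after Mrpl23. In CPM, Mrps21 had 41.5, 41.8, 66.6 and 44 in mutant centrocytes, 47.6, 33.8, 35 and 30.2 in control centrocytes, 49.6, 77.4, 49 and 60.9 in mutant centroblasts and 41.0, 43.8, 53.4 and 62.2 in control centroblasts. Its groups overlapped, with mutant centrocyte library 3 far above the other 3 of that group. Per kilobase Mrpl33 was above Mrps21 in 16 of 16 libraries, Mrps21 above Mrpl18 in 11, and Mrps36 above Mrpl23 in 13. The order depends on the transcript chosen, since per kilobase of all annotated exons Mrpl33 ranked 63rd of 77 and Mrpl18 the first. Mrps36 had 3.60, 3.22, 4.85 and 3.61 CPM in mutant centrocytes, against 3.53, 2.72, 2.04 and 2.31 CPM in control centrocytes. In centroblasts it had 3.10, 4.03, 3.62 and 3.80 CPM in mutant and 2.66, 3.30, 4.17 and 3.64 CPM in control mice, and it was called in no comparison. Most of the Mrps25 exons (69.8%) overlap those of Nr2c2, so its count is uncertain. Mrps36 is better known as a part of the α-ketoglutarate dehydrogenase complex than of the ribosome, and Mrpl23 lies at the exit of the peptide tunnel. Within groups the median coefficient of variation of members was 13.3% in mutant centrocytes, 12.6% in control centrocytes, 13.1% in mutant centroblasts and 14.2% in control centroblasts, against 13.9 to 21.7% for all tested genes.

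Summed over the 77 members, mutant centrocytes had 3365, 3557, 4196 and 3479 CPM in libraries 1 to 4, and control centrocytes 3493, 2878, 2958 and 2909 CPM. Mutant centroblasts had 3854, 4707, 3894 and 4045 CPM, and control centroblasts 3474, 3559, 3849 and 4371 CPM. The sums of mutant and control libraries overlapped in both cell types, through control library 1 in centrocytes, and centrocyte and centroblast sums overlapped in mice of each genotype. The means were 3649 ± 373, 3059 ± 291, 4125 ± 397 and 3814 ± 405 CPM in mutant centrocytes, control centrocytes, mutant centroblasts and control centroblasts. In sorted cells measured in bulk, fewer cells of a type and less RNA per cell cannot be told apart.

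**Figure D1:**
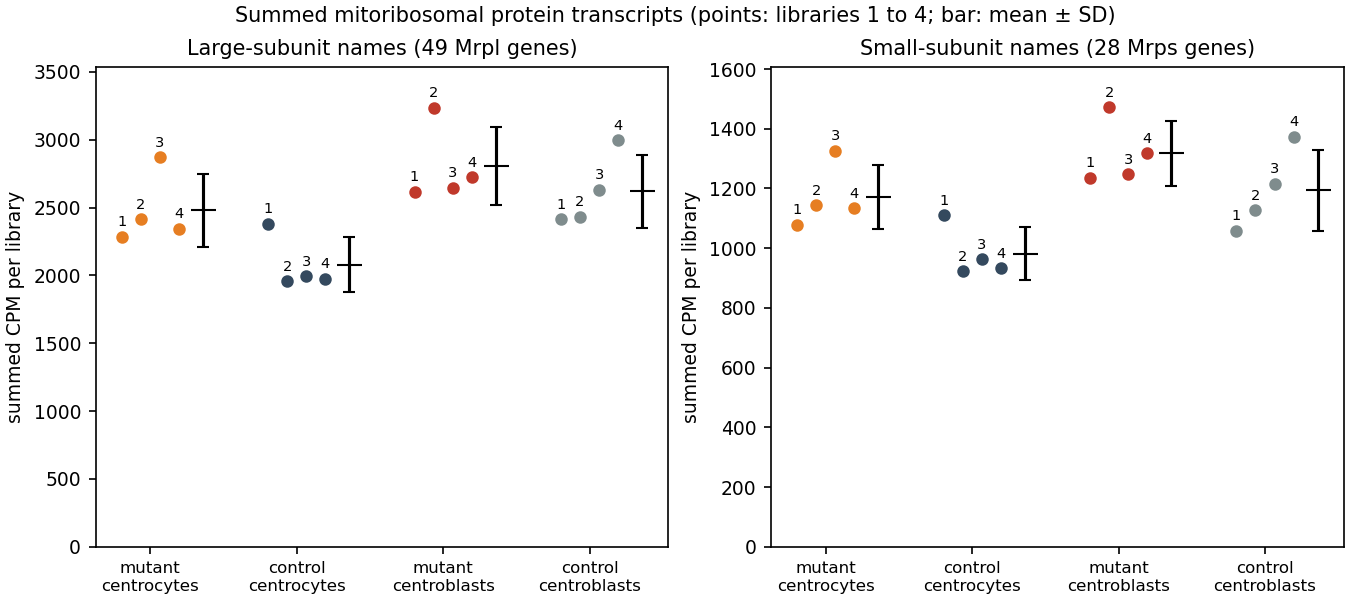
Summed CPM of the 49 Mrpl and the 28 Mrps genes in each of the 4 libraries of the 4 groups, numbered, with the mean and SD as bars. Mutant centrocyte library 3, control centrocyte library 1, mutant centroblast library 2 and control centroblast library 4 are the highest of their groups in both panels.

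Many members were lower in centrocytes than in centroblasts of control mice. Of 77, 32 fell (41.6%, against 12.9% of all 15240 tested genes) and 1, Mrpl23, rose (14.9% of all genes rose) at an adjusted p under 0.05. The median log2 fold change was -0.33, against 0.00492 for all genes, and 74 members had a negative value. All 4 centrocyte libraries lay below all 4 centroblast libraries for 24 members, as for 12.3% of all genes, and above them for 1 member, as for 15.4% of all genes. Naive follicular B cell transcripts also differed by cell type: 7 markers summed to 896 to 1084 CPM in mutant centrocytes, against 298 to 430 CPM in mutant centroblasts, and to 921 to 1126 CPM in control centrocytes, against 319 to 344 CPM in control centroblasts. The list includes the sort gene Cd38. Fcer2a made up the largest part of the sums, at 530.5 ± 77.9 CPM in mutant and 605.5 ± 68.6 CPM in control centrocytes. In centroblasts Fcer2a had 144.4 ± 18.96 CPM in mutant and 144.0 ± 25.9 CPM in control mice (SD). Of the 7 markers, 5 were called higher in centrocytes of each genotype, and their part in the members' change was not tested. The falls of the members were small, 1.22-fold for Mrps5 to 1.6-fold for Mrpl57. They covered 22 of the 49 Mrpl and 10 of the 28 Mrps genes, and 15 of the 44 members numbered in the bacterial series and 17 of the 33 outside it.

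Mrpl9 gave the smallest p. It had 67.2, 59.1, 60.3 and 59.3 CPM in control centrocytes, against 83.0, 81.3, 84.3 and 100.1 CPM in control centroblasts. Every centrocyte library was below every centroblast library, and the log2 fold change was -0.50 ± 0.0868 (SE, adjusted p = 0.000395). Mrps30, the large-subunit protein with an Mrps name, had 37.6, 36.1, 33.7 and 34.5 CPM in control centrocytes, against 62.5, 50.6, 47.0 and 49.7 CPM in control centroblasts. These groups did not overlap either (log2 fold change -0.56 ± 0.100, adjusted p = 0.000517).

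Mrpl49, which has no bacterial homologue, had 82.2, 64.6, 68.2 and 61.9 CPM in control centrocytes, against 99.97, 90.2, 96.5 and 107 CPM in control centroblasts (log2 fold change -0.51 ± 0.101, adjusted p = 0.00131). Mrpl27, which reaches towards the peptide-joining centre, had 23.9, 18.5, 19.4 and 18.3 CPM in control centrocytes, against 26.9, 27.7, 31.1 and 33.1 CPM in control centroblasts (log2 fold change -0.57 ± 0.129, adjusted p = 0.00354). For both, library 1 was the highest centrocyte library and still lay below the lowest centroblast library. Mrpl57 had the largest fall by size, to 21.9, 21.5, 20.2 and 25.3 CPM in control centrocytes, against 29.3, 27.4, 36.7 and 48.8 CPM in control centroblasts (log2 fold change -0.68 ± 0.175, adjusted p = 0.00837). Its centroblast values spread widely, with library 4 the highest.

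Mrpl23 went the other way from low counts. It had 2.59, 3.65, 4.13 and 4.01 CPM in control centrocytes, against 1.72, 2.22, 1.78 and 1.62 CPM in control centroblasts (log2 fold change 0.97 ± 0.272, adjusted p = 0.0137). The groups did not overlap, and the lowest of the 16 libraries held 46 reads of this gene. Mutant mice had 3.11, 2.63, 3.27 and 1.61 CPM in centrocytes and 2.96, 1.26, 1.49 and 1.68 CPM in centroblasts, which overlapped (adjusted p = 0.217). Mrpl24 and Mrpl52, the other 2 members with a positive value, were not called. Other members that fell were Mrpl18, Mrpl45, Mrps18a, Mrps14, Mrpl40, Mrpl46, Mrpl35, Mrpl20, Mrps23, Mrpl44, Mrps22, Mrpl51, Mrpl58, Mrpl33, Mrps5, Mrps31, Mrpl10, Mrpl22, Mrpl39, Mrpl43, Mrpl32, Mrps33, Mrpl16, Mrpl36, Mrps24, Mrpl21 and Mrps26. Mrpl45 helps to hold the ribosome at the inner membrane, and Mrpl58 releases stalled peptides.

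Of the 33 calls in control mice, 17 stayed past the threshold whichever of the 8 libraries was left out, and all 33 kept their sign in every setting tried. The number of members that fell was 20 without control centroblast library 4, and 16, 17 and 16 without control centrocyte libraries 2, 3 and 4. In males alone 3 members fell (3.9%, against 5.21% of all genes) and 0 rose (7.83% of all genes). In females alone 43 fell (55.8%, against 10.4% of all genes) and 1 rose (13.0% of all genes). Each of these fits had 2 libraries per group, and the test of the sex difference called 0 members in this comparison.

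The same comparison in mutant mice gave smaller values. Of 77 members 5 fell (6.49%, against 7.07% of all tested genes) and 0 rose (8.92% of all genes). The median log2 fold change was -0.17, against 0.0184 for all genes, and 68 members had a negative value. The libraries did not overlap for 11 members, lower in centrocytes, as for 10.5% of all genes, and for 0 members higher, as for 11.5%. The 5 that fell, all of them among the 32 that fell in control mice, were Mrpl9, Mrps30, Mrps18a, Mrps22 and Mrpl49. No member other than Mrpl9 and Mrps30 stayed past the threshold whichever library was left out.

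Mrpl9 had 70.4, 67.7, 63.7 and 68.8 CPM in mutant centrocytes, against 91.8, 90.2, 89.0 and 94.0 CPM in mutant centroblasts (log2 fold change -0.43 ± 0.0868, adjusted p = 0.00216). Mrps30 had 33.7, 37.1, 36.7 and 37.3 CPM in mutant centrocytes, against 46.3, 51.1, 52.1 and 54.3 CPM in mutant centroblasts (log2 fold change -0.49 ± 0.100, adjusted p = 0.00242). In both genes the groups were far apart compared with their spread. Mrps18a had 52.7, 56.9, 64.6 and 50.9 CPM in mutant centrocytes, against 74.4, 90.3, 66.4 and 77.3 CPM in mutant centroblasts (log2 fold change -0.45 ± 0.132, adjusted p = 0.0253). Mrps22, a small-subunit protein without a bacterial homologue, had 19.6, 17.2, 23.1 and 19.3 CPM in mutant centrocytes, against 24.7, 29.2, 28.5 and 22.3 CPM in mutant centroblasts (log2 fold change -0.40 ± 0.126, adjusted p = 0.0361). Mrps22 overlapped through centrocyte library 3 and centroblast library 4, and Mrps18a did not overlap.

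Same-numbered mutant libraries deviated together (correlations 0.263 to 0.327), and their numbers were taken as pairs, though the labels do not say that they are. Mutant centrocyte library 2 deviated most like centroblast library 1, and centrocyte library 4 most like centroblast library 3. Those libraries share a sex, so pairing and sex were not told apart. With replicate number as a block 12 members fell in mutant mice (15.6%, against 10.4% of all genes tested in that fit) and 1 rose (14.8% of all genes), and all 5 calls were kept. Without the block the share that fell was near that of all genes, and with it the share was above. In control mice, numbered alike, the correlations were -0.0059, 0.395, 0.452 and 0.134 for libraries 1 to 4. They were not taken as pairs because of library 1, though the values of libraries 2 and 3 exceeded every mutant value. With the block 16 members fell in control mice (20.8%, against 9.6% of all genes). Without it 32 fell, or 23 with the compared groups fitted alone. In mutant mice the groups fitted alone gave 4 without the block. So the block went with more falls in mutant and fewer in control mice. The number that fell in mutant mice was 2 and 3 without mutant centroblast libraries 2 and 4, and 2, 3, 15 and 2 without mutant centrocyte libraries 1, 2, 3 and 4.

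**Figure D2:**
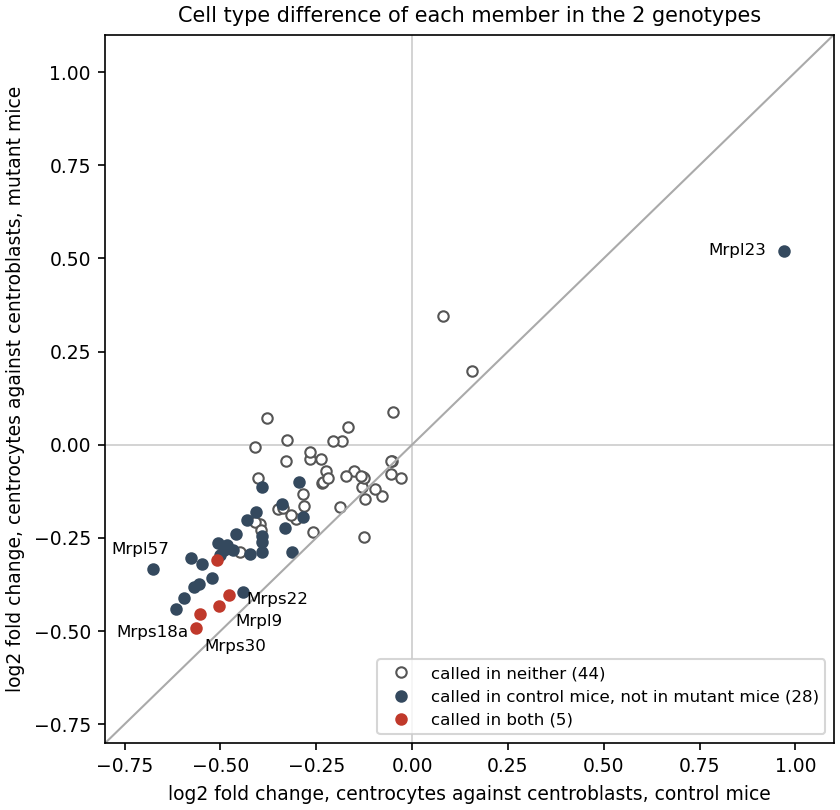
Log2 fold change of each of the 77 members, centrocytes against centroblasts, in control mice (horizontal axis) and mutant mice (vertical axis), with equality as the grey line. Most points lie in the lower left and above the line, and 5 members were called in both genotypes.

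The size of the cell type difference was smaller in mutant than in control mice for 68 members. The test of that difference, the interaction of genotype and cell type, called 0 members and 0 genes of any kind (0.0% in either direction, smallest adjusted p of a member 0.999). Without adjustment, 0 members were under 0.05 either, and by DESeq2 0 members passed. The median interaction of members was 0.16 on the log2 scale, against 0.0098 for all genes, and 70 were positive. Mrpl45 (0.23 ± 0.144) and Mrps36 (0.45 ± 0.284) had the smallest p. Mrpl45 had 73.6, 75.5, 81.5 and 73.3 CPM in mutant centrocytes, 74.0, 56.9, 57.0 and 59.4 in control centrocytes, 80.2, 89.9, 90.9 and 88.5 in mutant centroblasts and 77.5, 78.6, 82.1 and 95.2 in control centroblasts. Its control centrocyte libraries 2 to 4 were the lowest of the 16. The fall of the members is thus not shown to differ between mutant and control mice.

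A minority of members was higher in mutant than in control centrocytes. Of 77 members 10 rose (13.0%, against 7.37% of all tested genes) and 0 fell (9.15% of all genes). The median log2 fold change was 0.28, against 0.00144 for all genes, and 73 members had a positive value. All 4 mutant libraries lay above all 4 control libraries for 23 members, as for 11.1% of all genes, and below them for 0 members, as for 12.4% of all genes. The rises were 5 of 49 Mrpl and 5 of 28 Mrps genes, and 6 of the 44 numbered in the bacterial series and 4 of the 33 outside it.

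Mrps24, at the messenger entry side of the small subunit, gave the smallest p. It had 44.5, 44.1, 59.5 and 46.1 CPM in mutant centrocytes, against 38.2, 27.0, 28.4 and 30.7 CPM in control centrocytes. The groups did not overlap, and the log2 fold change was 0.64 ± 0.141 (adjusted p = 0.00501). It was the only called member that stayed past the threshold whichever of the 8 libraries was left out, and it was not called without mutant centrocyte libraries 3 and 4 together. Annotated exons of Urgcp on the same strand cover 15.4% of its exons, so part of its count may be shared or lost.

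Mrps6, a small-subunit protein with a bacterial homologue, had 12, 12.5, 18.1 and 13.8 CPM in mutant centrocytes, against 11.4, 7.51, 7.98 and 8.12 CPM in control centrocytes (log2 fold change 0.69 ± 0.175, adjusted p = 0.0123). It was also the 1 member called in centroblasts. Mrps23, found in animal mitoribosomes and not in bacteria, had 77.8, 83.0, 103 and 84.6 CPM in mutant centrocytes, against 72.2, 59.8, 62.9 and 59.5 CPM in control centrocytes (log2 fold change 0.45 ± 0.120, adjusted p = 0.0156). Control library 1 came close to the lowest mutant library in both genes, without overlap.

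Mrpl57, a small large-subunit protein, had 35.4, 34.3, 38.9 and 26.6 CPM in mutant centrocytes, against 21.9, 21.5, 20.2 and 25.3 CPM in control centrocytes (log2 fold change 0.60 ± 0.175, adjusted p = 0.0259). Mrpl30 had 61.8, 67.7, 93.6 and 65.3 CPM in mutant centrocytes, against 60.8, 45.9, 46.1 and 49.8 CPM in control centrocytes (log2 fold change 0.51 ± 0.153, adjusted p = 0.0310). Mrpl36 had 37.5, 40.1, 42.7 and 40.1 CPM in mutant centrocytes, against 35.1, 29.6, 31.7 and 30.3 CPM in control centrocytes (log2 fold change 0.34 ± 0.105, adjusted p = 0.0347). In each of the 3, all of large-subunit proteins, the margin between the lowest mutant and the highest control library was narrow.

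Mrps16, Mrpl20, Mrpl13 and Mrps34 completed the 10, with log2 fold changes of 0.44, 0.43, 0.45 and 0.47. Most of the Mrps34 exons (63.4%) lie opposite exons of Mapk8ip3, and 37.0% are shared with Nme3, so its count is uncertain without knowledge of strand. The calls depended on the libraries used. The number that rose was 4, 1 and 5 without mutant centrocyte libraries 2, 3 and 4, and 16, 1, 3 and 3 without control centrocyte libraries 1, 2, 3 and 4, and all 10 kept their sign in every setting tried. Without mutant libraries 3 and 4 together 0 members were called (3.09% of all genes rose and 4.55% fell) and the median was 0.17. These are the female libraries of that group. The fit compares male mutant libraries with control libraries of both sexes, in a smaller group, so these differences cannot be told apart.

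**Figure D3:**
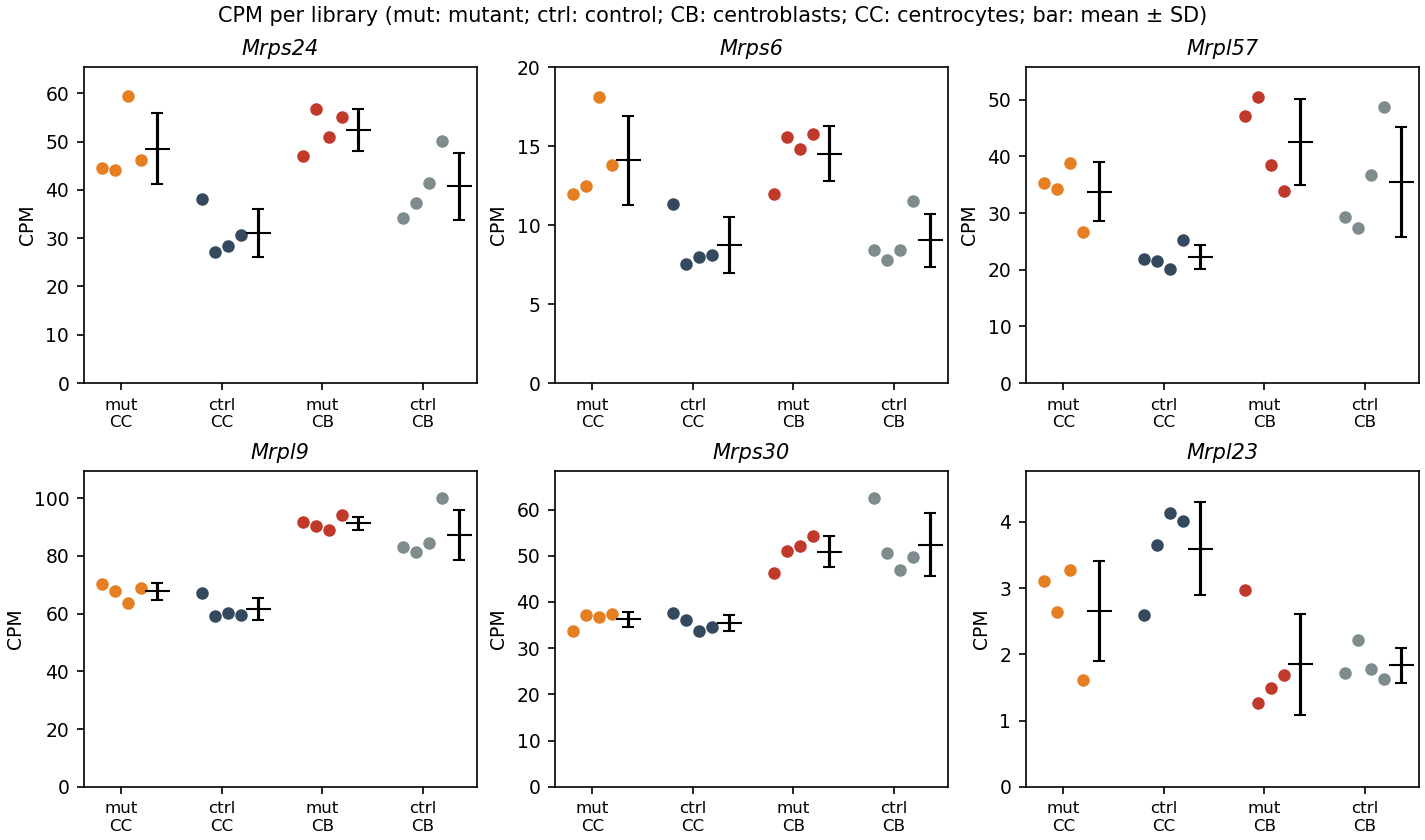
CPM in each library of 6 members, with mean and SD: Mrps24, Mrps6 and Mrpl57, which rose in mutant centrocytes, and Mrpl9, Mrps30 and Mrpl23, which differed between the cell types. Mrps24 reaches 59.5 CPM in mutant centrocyte library 3, and Mrpl9 and Mrps30 separate centrocytes from centroblasts in both genotypes.

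Mutant centrocyte libraries 3 and 4, the female ones, also stood apart in transcripts of macrophages. The 18 macrophage markers summed to 59.0 to 396 CPM in mutant centrocytes, with 390.1 and 395.8 in libraries 3 and 4, and to 88.9 to 151 CPM in control centrocytes. Of 17 tested markers 2 rose in mutant centrocytes and 0 fell. In centroblasts the sums were 42.5 to 125 CPM in mutant and 32.6 to 98.4 CPM in control mice. Of these markers Vsig4 was at 0 in most libraries and Marco in 1. Of 9 T cell markers Lck made up nearly the whole sum, at 289.8 to 326 CPM in mutant centrocytes and 209 to 310 CPM in control centrocytes. The other 8, Cd3d, Cd3e, Cd3g, Cd4 and Cd8a among them, summed to 3.58 to 6.98 CPM in mutant and 1.86 to 4.03 CPM in control centrocytes. Much of that sum was Thy1, at 2.93 ± 0.473 CPM in mutant and 0.769 ± 0.397 CPM in control centrocytes (SD). Thy1 differed alike in centroblasts, at 3.01 ± 0.461 CPM in mutant and 0.466 ± 0.200 CPM in control mice. In mutant centrocytes the means of Cd3e, Cd3g, Cd4 and Il7r were lower than in control centrocytes, and those of Cd3d, Cd8a and Cd8b1 higher. The 6 erythroid markers summed to 19.64 to 40.1 CPM in mutant and 11.93 to 19.22 CPM in control centrocytes, without overlap. Of 5 tested, 1 was called higher and 0 lower. Most of that sum was Hbb-bt, at 21.65 ± 4.52 CPM in mutant and 10.96 ± 1.93 CPM in control centrocytes (SD). Sums of the 6 plasma cell markers overlapped (943.6 to 1257 CPM in mutant and 988.4 to 1212 CPM in control centrocytes), with 1 called lower and 0 higher. The dark zone marker sums given above also separated these 2 groups. The summed members were at 4196 CPM in mutant library 3 and 3479 CPM in library 4. The part of these other cells in the result was not tested further.

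In centroblasts the genotypes were closer. Of 77 members 1, Mrps6, rose in mutant centroblasts (1.30%, against 4.06% of all tested genes) and 0 fell (6.40% of all genes), with 6 higher and 0 lower before adjustment. The median log2 fold change was 0.12, against 0.0083 for all genes, and 62 members had a positive value. All 4 mutant libraries lay above all 4 control libraries for 4 members, as for 6.36% of all genes, and below them for 0 members, as for 8.01% of all genes. Mrps6 had 12, 15.6, 14.8 and 15.8 CPM in mutant centroblasts, against 8.46, 7.82, 8.41 and 11.5 CPM in control centroblasts. The groups did not overlap (log2 fold change 0.68 ± 0.175, adjusted p = 0.0170), but the call was lost without mutant library 2 or 4 or control library 2 or 3, with an adjusted p of up to 0.0693. Without control library 4, 4 members rose. Exons of Gm49711 and Slc5a3 on the same strand cover 19.9% and 10.4% of the Mrps6 exons.

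**Figure D4:**
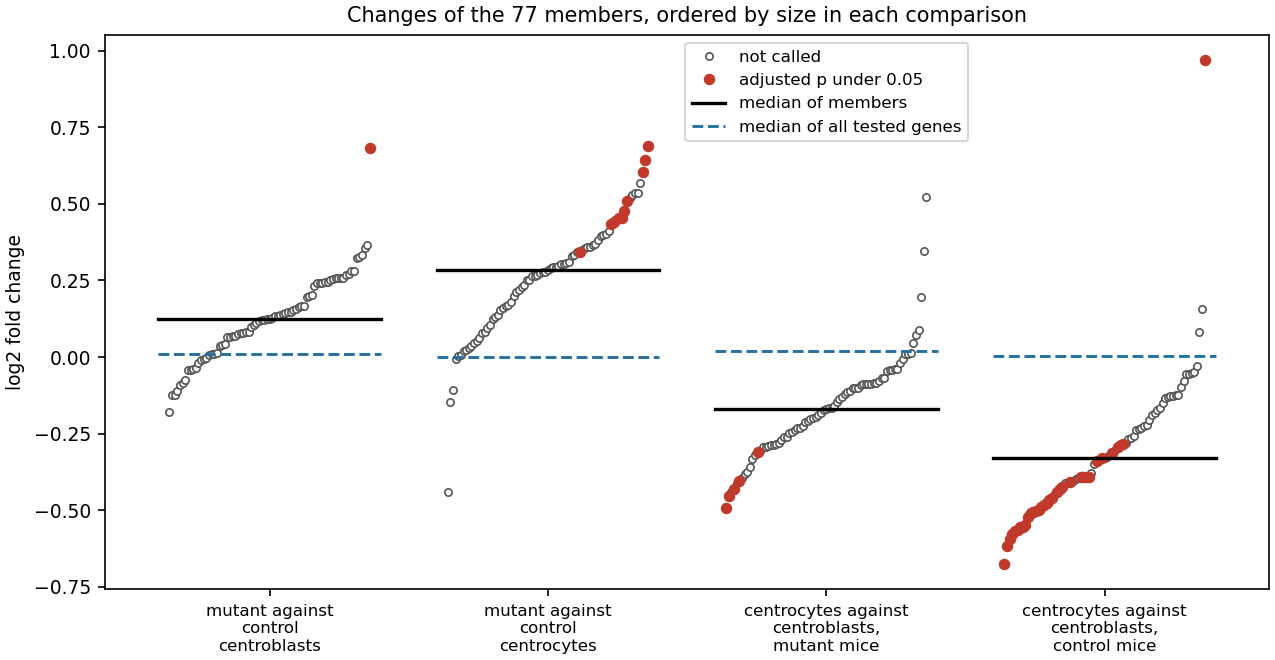
Log2 fold changes of the 77 members in the 4 comparisons, ordered by size in each, with called members filled and medians of members (solid) and of all tested genes (dashed). The member median is above that of all genes in both genotype comparisons and below it in both cell type comparisons.

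The genotype medians differed by sex. In males alone the median log2 fold change, mutant against control, was 0.28 in centroblasts and 0.099 in centrocytes. In females alone it was -0.0012 in centroblasts and 0.40 in centrocytes. For centrocytes against centroblasts the medians in mutant mice were -0.31 in males and -0.045 in females, and in control mice -0.14 in males and -0.52 in females. With 2 libraries per group and sex, the sex difference itself was past the threshold for 1 member, Mrps12, in centroblasts (0.269% of all genes were called) and for 0 members in the other comparisons.

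Within each group 1 library had the highest median level of the members. The median deviation of members from their mean over the 16 libraries (log2 CPM) was 0.39 in mutant centroblast library 2, 0.28 in control centroblast library 4, 0.27 in mutant centrocyte library 3 and -0.049 in control centrocyte library 1, the highest of each group. In the same 4 libraries the cytosolic ribosomal proteins (0.47, 0.22, 0.48 and -0.11) and the nuclear subunits of oxidative phosphorylation (0.57, 0.36, 0.34 and -0.19) were also highest in their groups. Genes with transcripts of up to 1000 bases were highest in these libraries as well (0.17, 0.092, 0.17 and -0.061), and genes over 4000 bases were lowest (-0.16, -0.14, -0.13 and 0.022). What made these libraries differ was not tested.

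Members have short transcripts, with a median of 1316 bases (418 to 7300) against 2497 for the 14990 tested genes with an annotation. Among all tested genes of up to 1000 bases the median log2 fold change in mutant against control centrocytes was 0.20, and it was -0.11 over 4000 bases. The members were at 0.38 in the shortest class (24 members), 0.25 in the class of 1000 to 2000 bases (28), 0.25 in that of 2000 to 4000 (17) and 0.25 over 4000 (8). So the members' medians lay above those of all genes in each class, by less in the shortest one than in the longest one. Across members the Spearman correlation of this change with length was -0.32, and across all genes -0.23.

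Between cell types of control mice length went with the change less closely. The medians of all genes were -0.14 up to 1000 bases and 0.094 over 4000 bases, and those of members -0.35, -0.34, -0.42 and -0.23 from the shortest to the longest class. Spearman's correlation with length was 0.032 across members and 0.14 across all genes. Genes are not independent replicates, so these are descriptions.

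**Figure D5:**
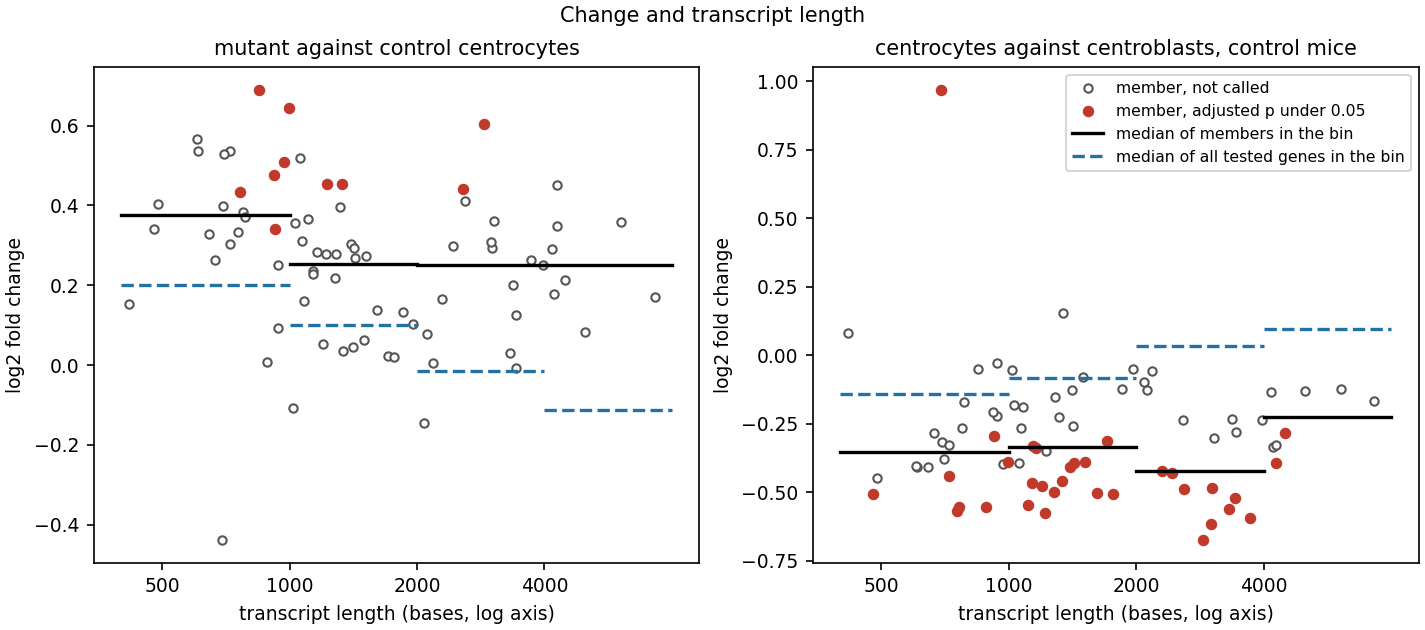
Log2 fold change against transcript length (log axis) for the 77 members, in mutant against control centrocytes (left) and centrocytes against centroblasts of control mice (right), with medians of members (solid) and of all tested genes (dashed) in 4 length classes. On the left both medians are highest in transcripts of up to 1000 bases, and on the right the member medians stay below those of all genes in every class.

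A fit with an offset for transcript length and GC content in each library narrowed the distance between members and all genes. In mutant against control centrocytes it was 0.14 with the offset and 0.28 without it, and in centroblasts 0.039 and 0.12. Between cell types it was -0.13 with the offset and -0.19 without it in mutant mice, and -0.25 and -0.33 in control mice. With the offset 25 members rose in mutant against control centrocytes (18.8% of all genes rose), and 42 fell in control centrocytes against control centroblasts (24.3% of all genes fell). The offset shifted the medians of all genes in the same directions, to 0.076 and -0.071. It also turned the trend with length among members: their Spearman correlation with length was 0.40 in mutant against control centrocytes and 0.45 in centroblasts, against -0.32 and -0.21 without the offset, while across all genes it was 0.0039 and 0.031.

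The numbering of the Mrps18 family hides differences in place and level. Mrps18a, now placed in the large subunit, fell in centrocytes of both genotypes, with a log2 fold change of -0.55 ± 0.132 in control mice (adjusted p = 0.00492). Mrps18b, which stayed in the small subunit, had 21.4 to 34.4 CPM over the 16 libraries, with 26.3 ± 3.83 CPM in mutant centrocytes, 23.6 ± 3.15 in control centrocytes, 29.5 ± 3.65 in mutant centroblasts and 26.8 ± 2.58 in control centroblasts (SD, n = 4 each), with 0 calls. Mrps18c, the small-subunit copy left out by the rule, had 42.4, 34.9, 33.5 and 29.7 CPM in control centrocytes, against 75.6, 65.9, 56.0 and 63.1 CPM in control centroblasts (log2 fold change -0.89 ± 0.159, adjusted p = 0.000517), larger than any fall among the 77. In mutant mice its log2 fold change was -0.62 ± 0.158 (adjusted p = 0.0111). The interaction did not pass the threshold for any of the 3 (log2 0.10, 0.022 and 0.27).

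The counts in the gene lists below stand beside these shares of all tested genes. Between genotypes 7.37% rose and 9.15% fell in mutant centrocytes, and 4.06% and 6.4% in mutant centroblasts. In centrocytes against centroblasts 8.92% rose and 7.07% fell in mutant mice, and 14.9% and 12.9% in control mice. Of 6 mitoribosomal proteins with other names, including Mrps18c, 0 were called between genotypes, 1 fell in centrocytes of mutant mice and 2 in those of control mice, the second being Dap3, a GTP-binding small-subunit protein (log2 fold change -0.37 ± 0.0916, adjusted p = 0.00671). Of 24 factors that assemble the mitoribosome, 1 rose and 0 fell in each genotype comparison. Rbfa, a maturation factor of the small subunit, was the only one called in centrocytes between genotypes, at 39.6 ± 3.09 CPM in mutant and 26.0 ± 2.87 CPM in control centrocytes (log2 fold change 0.60 ± 0.163, adjusted p = 0.0175), and Mtg2, a GTPase, the only one in centroblasts (0.41 ± 0.127, adjusted p = 0.0477). In control centrocytes against control centroblasts Tfb1m, which methylates the small-subunit RNA, and Malsu1 fell, and Mettl17 rose, also in mutant mice.

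Of 15 mitochondrial translation factors, Mrrf, which recycles ribosomes, rose in mutant against control centrocytes (log2 fold change 0.45 ± 0.109, adjusted p = 0.0093), and 0 were called in centroblasts. In control centrocytes against control centroblasts Mtfmt and Guf1 rose and Slirp and Taco1 fell. Of 17 mitochondrial tRNA synthetases 1 rose in each genotype comparison, Lars2 in centrocytes and Ears2 in centroblasts. In centrocytes against centroblasts Cars2 rose in mutant mice, and in control mice Cars2 and Wars2 rose and Fars2 fell. Of 8 genes of mitochondrial transcription and DNA replication, Twnk and Polg2 rose in control centrocytes against control centroblasts and 0 were called elsewhere. Twnk lies opposite Mrpl43, of whose exons it overlaps 33.4%. The 13 mitochondrially encoded proteins, of which 7 passed the filter, gave 0 calls in any comparison, and their sums overlapped between all groups (13950 to 22610 CPM in mutant centrocytes, 10380 to 18350 in control centrocytes, 10700 to 21180 in mutant centroblasts and 8464 to 23030 in control centroblasts).

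Of 9 regulators known to act on nuclear genes of mitochondrial proteins 8 were tested, and 0 were called between genotypes. In centrocytes against centroblasts of control mice 4 rose and 1 fell, and in mutant mice 2 rose and 1 fell. Nrf1 fell in both: it had 78.8 ± 10.5 CPM in mutant centrocytes and 103 ± 7.78 CPM in mutant centroblasts (log2 fold change -0.38 ± 0.108, adjusted p = 0.0226), and 82.2 ± 4.87 CPM in control centrocytes and 107 ± 11.8 CPM in control centroblasts (-0.38 ± 0.108, adjusted p = 0.0146). Its motif was in 3 of the 68 members with a promoter, Mrpl9, Mrpl32 and Mrpl39, and not in Mrps30. A part of Nrf1 in the members' change was not tested. Myc, a general activator of growth genes, rose in both (log2 fold change 1.08 ± 0.198, adjusted p = 0.00104, in mutant and 1.47 ± 0.200, adjusted p = 4.56e-05, in control mice), to 61.6 ± 13.3 CPM in mutant centrocytes, against 29.1 ± 5.37 CPM in mutant centroblasts, and to 68.5 ± 8.42 CPM in control centrocytes, against 24.7 ± 6.65 CPM in control centroblasts (SD, n = 4 each). Pprc1 also rose in control mice and Ppargc1b in mutant mice, both coactivators of mitochondrial genes.

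The nuclear subunits of oxidative phosphorylation, which join the products of the mitoribosome in the respiratory chain, are counted beside them. Of 75, 32 rose and 0 fell in mutant against control centrocytes, and 2 rose and 49 fell in control centrocytes against control centroblasts (7 fell in mutant mice). Ndufa6 and Ndufb5 of complex I rose in mutant centrocytes, and Sdhd and Uqcrfs1 fell in control centrocytes, with the smallest p. The medians of this list were 0.46 and -0.50, against 0.28 and -0.33 for the members. Of 78 cytosolic ribosomal proteins, whose counts are uncertain because of near-identical copies, 34 rose and 2 fell in mutant against control centrocytes (median 0.48). In control centrocytes against control centroblasts 10 rose and 4 fell, and their median was -0.30, near that of the members. In mutant mice 5 rose and 0 fell, and their median was 0.095, against -0.17 for the members.

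Genes that start beside members on the other strand changed in both directions. Of 21 tested partners that are not members, 4 fell and 5 rose in control centrocytes against control centroblasts (12.9% and 14.9% of all tested genes). In mutant against control centrocytes 6 fell and 1 rose (9.15% and 7.37% of all tested genes). Ska3, a mitotic gene that starts 49 bases from Mrpl57, fell in mutant against control centrocytes by 0.33 on the log2 scale (SE 0.109, adjusted p = 0.0452), where Mrpl57 rose. Ndufs6 rose in that comparison together with Mrpl36 (0.44 ± 0.145, adjusted p = 0.0464).

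In all, 38 of the 77 members were called in at least 1 comparison and 39 in none. Those never called included Mrpl12 and Mrpl11 of the stalk region, Mrps12 of the decoding centre, Mrps7, Mrpl3, one of the most abundant by counts, and Mrps36.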

How the data were processed

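RNA-seq of 16 libraries (TruSeq RNA kits, RNA integrity of at least 8, per the labels' protocols) was analysed from the count table the authors deposited, which holds raw counts of reads per gene. Per the submitters' processing notes, the tools named were Trim Galore, cutadapt, STAR 2.5.3a, Subread and featureCounts 1.4.5-p1, with the mm10 build. The gene annotation, strand setting and treatment of multiply mapped reads are not given in the sources used here. Naive B cells named in the design are not analysed here.

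Counts were fitted with edgeR 4.0.16 (limma 3.58.1, R 4.3.3): filterByExpr by group left 15240 genes, TMM scaling, 1 mean per group over all 16 libraries with 12 residual degrees of freedom, and the quasi-likelihood test with Benjamini-Hochberg adjustment over all tested genes. A gene was called at an adjusted p under 0.05. All adjusted p-values in the text are from this test unless another is named, log2 fold changes are given ± SE, and SE is the log2 fold change divided by the square root of F. CPM uses TMM-adjusted library sizes. Totals of 35230563 to 44466911 counts limit the precision. Transcript lengths came from GENCODE M21 on GRCm38 (the best-ranked transcript per gene, 98.4% of tested genes), and the offset used splines with 4 degrees of freedom. The fit was tested on simulated data with 200 changed genes.

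Members and gene lists were chosen with earlier results of these data known. Values in every library are given for members with the smallest p in each comparison, the extremes of level, the Mrps18 family and Mrps36. For members named because 1 library stood apart, that library and the range of the others are given. Same-numbered libraries were paired by the correlation of their deviations from group means (0.263 to 0.327 in mutant centrocytes and centroblasts, -0.0059 to 0.452 in control mice, -0.0886 to 0.123 and -0.0278 to 0.344 between genotypes in centrocytes and centroblasts), and only the first set had every value over 0.1. Alternatives were DESeq2 1.42.0, other scaling, filters, blocks and offsets, sex, and leaving out libraries. The test of the sex difference was chosen after seeing the data.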

Additional observations from a re-analysis of the deposited data

Results flagged for a closer look

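In 30 of 308 sets of 4 libraries, 1 per member and group, a single library lay far from the other 3 (its gap to the next, over the range of the group, was above Dixon's critical value). Chance alone marks about 1 such set in 20, and sets of one group share their libraries. The sets involved 27 genes. In 11 sets the library apart was control centrocyte library 1, and in 10 it was mutant centrocyte library 3. What set these libraries apart was not tested.

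Mutant centrocyte library 3 was the highest, with 141 CPM for Mrpl3 (others 112 to 117), 86.9 CPM for Mrpl13 (others 59.5 to 59.7), 37.7 CPM for Mrpl32 (others 24.6 to 25.6), 74.7 CPM for Mrpl33 (others 47.4 to 49.6), 60.9 CPM for Mrpl39 (others 44 to 45.1), 26.6 CPM for Mrpl47 (others 19.7 to 19.9), 66.6 CPM for Mrps21 (others 41.5 to 44), 59.5 CPM for Mrps24 (others 44.1 to 46.1), 30.6 CPM for Mrps31 (others 22.6 to 23.5) and 9.3 CPM for Mrps33 (others 5.15 to 5.84). Control centrocyte library 1 was the highest, with 67.2 CPM for Mrpl9 (others 59.1 to 60.3), 47.1 CPM for Mrpl11 (others 35.6 to 36.8), 59.2 CPM for Mrpl13 (others 44.2 to 45.5), 68.0 CPM for Mrpl40 (others 53.7 to 56.0), 57.1 CPM for Mrpl42 (others 42.3 to 43.9), 42.1 CPM for Mrpl44 (others 32.5 to 34.1), 74.0 CPM for Mrpl45 (others 56.9 to 59.4), 11.4 CPM for Mrps6 (others 7.51 to 8.12), 133 CPM for Mrps7 (others 104 to 109), 57.2 CPM for Mrps15 (others 42.4 to 43.9) and 66.9 CPM for Mrps18a (others 51.1 to 53.1). Mutant centroblast library 2 was the highest, with 26.6 CPM for Mrpl22 (others 19.6 to 20.3), 47.8 CPM for Mrpl41 (others 31.5 to 32.5) and 26.8 CPM for Mrps28 (others 21.3 to 22.0). Control centroblast library 4 was the highest, with 100.1 CPM for Mrpl9 (others 81.3 to 84.3), 59.4 CPM for Mrpl16 (others 47.0 to 49), 77.3 CPM for Mrpl30 (others 62.5 to 63.6) and 54.6 CPM for Mrpl44 (others 43.9 to 44.7). Mutant centrocyte library 1 was the lowest, with 33.7 CPM for Mrps30 (others 36.7 to 37.3). Control centrocyte library 2 was the lowest, with 23.4 CPM for Mrpl52 (others 31.0 to 32.1).

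For Mrps12, a protein of the decoding centre, the difference between mutant and control centroblasts was itself different by sex: the log2 fold change was -0.42 in females and 0.94 in males, a difference of -1.38 (adjusted p = 0.0403, edgeR, females minus males). Mutant centroblasts had 26.5, 30.0, 19.9 and 22.2 CPM and control centroblasts 12.3, 16.9, 26.2 and 30.4 CPM in libraries 1 to 4, the first 2 of each from males. Each sex had 2 libraries per group.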

How the results depend on the processing

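Called members numbered 1 in mutant against control centroblasts, 10 in mutant against control centrocytes, and 5 and 33 in centrocytes against centroblasts of mutant and control mice. Leaving out 1 library gave 0 to 4, 1 to 16, 2 to 15 and 17 to 39, and the median in the centrocyte genotype comparison ranged over 0.17 to 0.35. Without mutant centrocyte libraries 3 and 4 that comparison gave 0 members (3.09% of all genes rose and 4.55% fell) and a median of 0.17. More genes of all kinds were called under several settings. The counts of members in the genotype and cell type comparisons below are therefore given with the share of all genes called in the same direction. For fits that left out 1 library that share is not given, here or above. DESeq2 called 16 higher in mutant centrocytes (20.8% of members, 9.36% of all genes) and 10 lower in mutant centrocytes against centroblasts (13.0 and 9.03%), and fitting the compared groups alone called 19 higher in mutant centrocytes (24.7 and 9.65%). The GC and length offset called 3 in centroblasts between genotypes (2 higher, 2.6 and 11.2%), 25 in centrocytes (32.5 and 18.8%) and 16 between cell types of mutant mice (15 lower, 19.5 and 16.6%), and with the replicate block 4 (3 higher, 3.9 and 8.95%), 21 (27.3 and 15.0%) and 23 (21 lower, 27.3 and 20.9%). The length offset alone called 11 lower between cell types of mutant mice (14.3 and 10.5%). The replicate block alone called 13 between cell types in mutant mice (12 lower, 15.6 and 10.4%) and 17 in control mice (16 lower, 20.8 and 9.6%). In control mice the numbers were not taken as pairs, and whether they are pairs is not known in either genotype. In males alone 14, 1, 2 and 3 were called (18.2, 1.3, 2.6 and 3.9% of members, 6.8, 1.97, 3.65 and 5.21% of all genes), with medians 0.28, 0.099, -0.31 and -0.14, in the order given first. In females alone 0, 17 and 1 were called in the first 3 (0.0, 22.1 and 1.3% of members, 1.19, 6.63 and 2.85% of all genes), with medians -0.0012 (turned in sign), 0.40 and -0.045. Between cell types of control mice 43 fell in females alone (55.8% of members, 10.4% of all genes) and 1 rose (1.3 and 13.0%), with a median of -0.52. The interaction called 0 members in every setting run, with medians of -0.18 in males (turned in sign) and 0.45 in females. The cause of these shifts was not tested. All 33, 10, 5 and 1 called members kept their sign in every setting. Most gene-level results (3914) kept their call, 83 passed the threshold in addition and 183 no longer passed. Low counts limit Mrpl23 and Mrps36.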
